A study of Mus musculus with 32 samples.

Results

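The cGAS-STING pathway components described here are 8 genes: *Cgas*, *Sting1*, *Tbk1*, *Ikbke*, *Enpp1*, *Banf1*, *Surf4* and *Stim1*. They were found in the count table by their Ensembl identifiers without version, 8 rows of 54281, and all 8 passed the filter on low counts. The values come from bone marrow-derived macrophages (BMDMs), differentiated in L929-conditioned medium from mouse marrow of 2 genotypes, Trex1 FL/FL and Trex1 WT/FL, both with R26 CreERT2. Cells of each genotype were given 2 µg/ml 4-hydroxytamoxifen (4-OHT) for 22 h or left untreated, and RNA was taken on days 1 to 4 thereafter, which gives 16 groups of 2 libraries. All groups carry the CreERT2 allele, a tamoxifen-inducible recombinase expressed from the Rosa26 locus, and at least 1 floxed Trex1 allele. After 4-OHT, Trex1 FL/FL cells can lose both alleles and Trex1 WT/FL cells keep a wild type allele, so the 4-OHT control is heterozygous at most. The labels name no animal, culture or batch, so each p-value measures only the spread between these libraries, which may be technical.

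cGAS, the product of *Cgas*, is a cytosolic enzyme that binds DNA and makes the second messenger cGAMP. cGAMP binds STING, a membrane protein of the endoplasmic reticulum (gene *Sting1*), which then moves to the Golgi and recruits the kinases TBK1 and IKKε (gene *Ikbke*), which phosphorylate the transcription factor IRF3 for transcription of type I interferon (IFN). ENPP1 hydrolyses cGAMP outside the cell, BAF (gene *Banf1*) binds DNA at the nuclear envelope and limits the access of cGAS to it, SURF4 returns STING from the Golgi to the endoplasmic reticulum, and STIM1, a calcium sensor, retains STING there. TREX1 is the DNA exonuclease that degrades DNA in the cytosol and so limits the activation of cGAS. In macrophages this pathway is known as a sensor of viral and misplaced self DNA.

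Promoter sequences were read because the results below turn on differences in transcript level. RefSeq gave promoters, taken as 250 bases before to 50 bases after the start, for 7 of the 8 genes, with 2 for *Banf1* and none for *Sting1*. The table is on GRCm38.p6, and each sequence was found once and unaltered in GRCm39, the build named for these data. The windows were searched on both strands for an IRF site (GAAANNGAA), a GAS element bound by STAT proteins (TTCNNNGAA), a kappaB site (GGGANTTCC) and E2F sites (TTTCCCGC and TTTGGCGC). The only match was TTTCCCGC in 1 *Banf1* promoter, which starts 81 bases before the transcription start (position -81). Of 32851 promoters of the same length, 8.56% held the IRF letters, 8.3% the GAS letters, 1.68% the kappaB letters, 1.07% TTTCCCGC and 0.514% TTTGGCGC. A match describes letters only, and its absence says only that these letters are not in the window. The 250 upstream bases are shown for *Cgas* and *Ikbke*, the members that differed between the 4-OHT-treated genotypes, and for the *Banf1* promoter with the match, in capitals. All 3 lie on the minus strand and are written 5′ to 3′, at chr9:78350520-78350769, chr1:131207302-131207551 and chr19:5416905-5417154 of GRCm39.
Cgas: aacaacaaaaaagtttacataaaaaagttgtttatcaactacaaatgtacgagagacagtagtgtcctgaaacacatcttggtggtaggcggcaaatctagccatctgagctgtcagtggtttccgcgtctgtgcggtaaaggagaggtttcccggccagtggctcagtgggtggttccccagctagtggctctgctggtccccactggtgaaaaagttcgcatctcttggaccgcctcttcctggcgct
Ikbke: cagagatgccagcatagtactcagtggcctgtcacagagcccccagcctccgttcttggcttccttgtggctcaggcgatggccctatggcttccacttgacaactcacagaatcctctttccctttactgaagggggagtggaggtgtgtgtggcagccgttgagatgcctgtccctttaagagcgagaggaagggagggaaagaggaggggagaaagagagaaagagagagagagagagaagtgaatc
Banf1: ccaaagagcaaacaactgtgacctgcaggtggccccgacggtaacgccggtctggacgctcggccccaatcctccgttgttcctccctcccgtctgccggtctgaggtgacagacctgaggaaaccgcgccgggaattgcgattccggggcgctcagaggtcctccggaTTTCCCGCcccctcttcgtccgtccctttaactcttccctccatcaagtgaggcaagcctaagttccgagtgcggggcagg

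The totals were 35120505 to 63760884 estimated counts per library (median 44841991), and levels are given below as CPM, the count scaled by the library's total and its TMM factor. As a check of the labels, *Trex1* had 0 counts in both 4-OHT-treated Trex1 FL/FL libraries at 3 of the time points (days 1, 3 and 4), with 14 and 9 counts on day 2. Each 4-OHT-treated Trex1 WT/FL library held 758 to 3622 counts and each untreated library 1174 to 6553. All 8 macrophage markers were present in all 32 libraries, with *Adgre1* at 952 to 4983 CPM and *Csf1r* at 1313 to 6239 CPM. *Lyz2* had the highest median of the 8, at 18981 CPM beside 3746 for *Adgre1*, so it weighs most in their sum. The summed level of the 8 markers was 28946 to 30852 CPM in 4-OHT-treated Trex1 FL/FL and 30665 to 31407 CPM in their Trex1 WT/FL counterparts on day 4. On day 3 it was 38465 to 38929 CPM against 45268 to 47522 CPM. Markers of neutrophils, dendritic cells, B cells, fibroblasts, erythroid and mast cells summed to at most 14.3, 2.35, 0.173, 2.27, 0.0250 and 0.771 CPM. Of the T cell markers, *Cd3e* and *Cd3g* were each above 0 in 1 library only and *Cd4* reached 52.9 CPM.

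Per kilobase of merged exons, which allows levels to be compared between genes, *Surf4* was the most abundant component and *Enpp1* the least. The median level over the 32 libraries, in CPM per kilobase, was 60.9 for *Surf4*, 27.1 for *Ikbke*, 20.8 for *Tbk1*, 15.2 for *Sting1*, 15.1 for *Banf1*, 6.64 for *Stim1*, 4.54 for *Cgas* and 0.691 for *Enpp1*. The cGAMP synthase was thus present at a lower transcript level than its adaptor and both kinases. Among these medians, only *Sting1* and *Banf1* changed places when the longest transcript replaced the merged exons, at 17.1 and 21.3 CPM per kilobase. In both lengths *Surf4* came first and *Enpp1* last in all 16 groups.

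The order in between depended on the day. On day 1, *Banf1* came second in every group, with group means of 26.6 to 29.5 CPM per kilobase, and *Ikbke* overlapped with *Sting1* in every group. From day 2 on *Ikbke* came second, and on day 2 it overlapped with its next neighbour in both Trex1 WT/FL groups, which were *Banf1* in untreated and *Tbk1* in 4-OHT-treated cells. *Cgas* and *Stim1* overlapped in 4-OHT-treated Trex1 WT/FL cells on day 1 and, on day 2, in Trex1 FL/FL cells given 4-OHT. All these overlaps are per kilobase of merged exons. Per kilobase of the longest transcript, the group means of *Stim1* and *Cgas* were 13.7 and 5.68 CPM in the first of these groups. In the second they were 15.8 and 6.79 CPM. Those of *Ikbke* and *Sting1* were 16.8 and 10.2 CPM in untreated Trex1 WT/FL cells on day 1. The counts of 3 members are uncertain, since their transcripts share 31-base words with other annotated genes. The quantification may have had to divide reads between these genes. Words were matched on either strand, and the annotation release used for the quantification is not given. The shared part was 81.3% for *Surf4* (mostly with *Surf2*), 41.8% for *Banf1* (mostly with *Eif1ad*) and 35.9% for *Cgas* (mostly with Gm68924), against 0.257% to 2.33% for the other members.

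**Figure D1:**
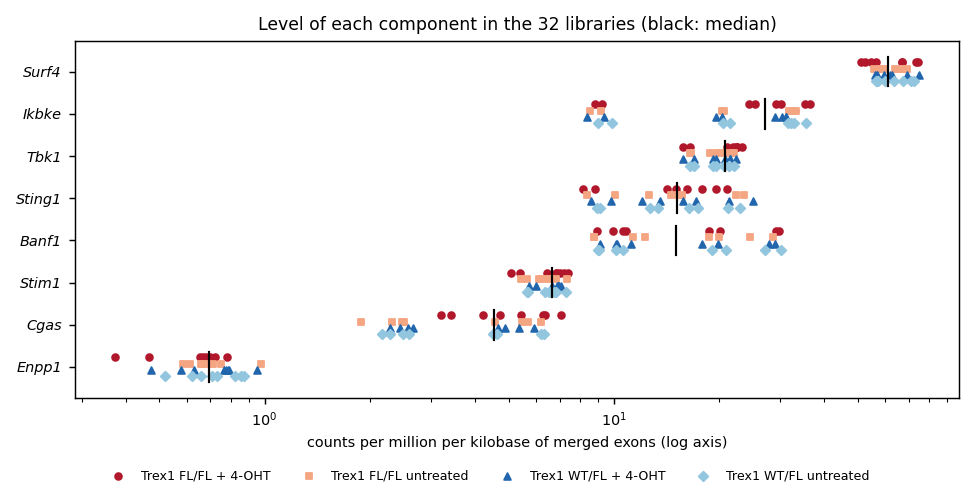
Level of each component in CPM per kilobase of merged exons on a log axis, with 1 point for each of the 32 libraries coloured by genotype and treatment and a black line at the median. *Surf4* has the highest median (60.9) and *Enpp1* the lowest (0.691).

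The comparison of 4-OHT-treated Trex1 FL/FL with 4-OHT-treated Trex1 WT/FL BMDMs asked how loss of the second Trex1 allele changed the transcripts of the pathway itself. *Cgas* and *Ikbke* were higher in Trex1 FL/FL cells on days 2 and 4, and the other 6 components passed the test on no day. *Cgas* was 1.41-fold higher on day 2 and 1.90-fold higher on day 4, while *Ikbke* was 1.24-fold and 1.16-fold higher. *Sting1*, the adaptor, and *Tbk1*, the principal kinase, passed on none of the 4 days. Calls rest on the quasi-likelihood test of edgeR, with p-values adjusted by Benjamini-Hochberg across 15257 genes and a threshold of 0.01.

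Of the 8 members, 2 passed on day 2 and 2 on day 4, all higher in Trex1 FL/FL cells, and 0 passed on days 1 and 3. At an unadjusted p below 0.05 there was 1 member on day 1 (*Stim1*, log2 fold change -0.16) and there were 3 on day 3 (*Cgas*, *Sting1* and *Surf4*), and DESeq2 called 0 on both days. Over all tested genes the percentages called were 0.0197, 8.17, 12.1 and 21.5 in the order of the days, so that the count of members is close to the background on day 4. Of these calls on days 2 to 4, 69.7%, 55.2% and 45.7% were higher in Trex1 FL/FL cells, and 42.5%, 42.1% and 27.8% when library totals replaced TMM scaling. The median log2 fold change of the members was 0.041 on day 2 and 0.049 on day 4, beside -0.0097 and -0.037 over all tested genes. The study also asked for an absolute log2 fold change over 1.5. No member met this on any day, beside 0.0131%, 0.583%, 0.872% and 2.98% of the tested genes in the order of the days. In bulk RNA, a change in the number of expressing cells and a change in RNA per cell cannot be told apart.

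**Figure D2:**
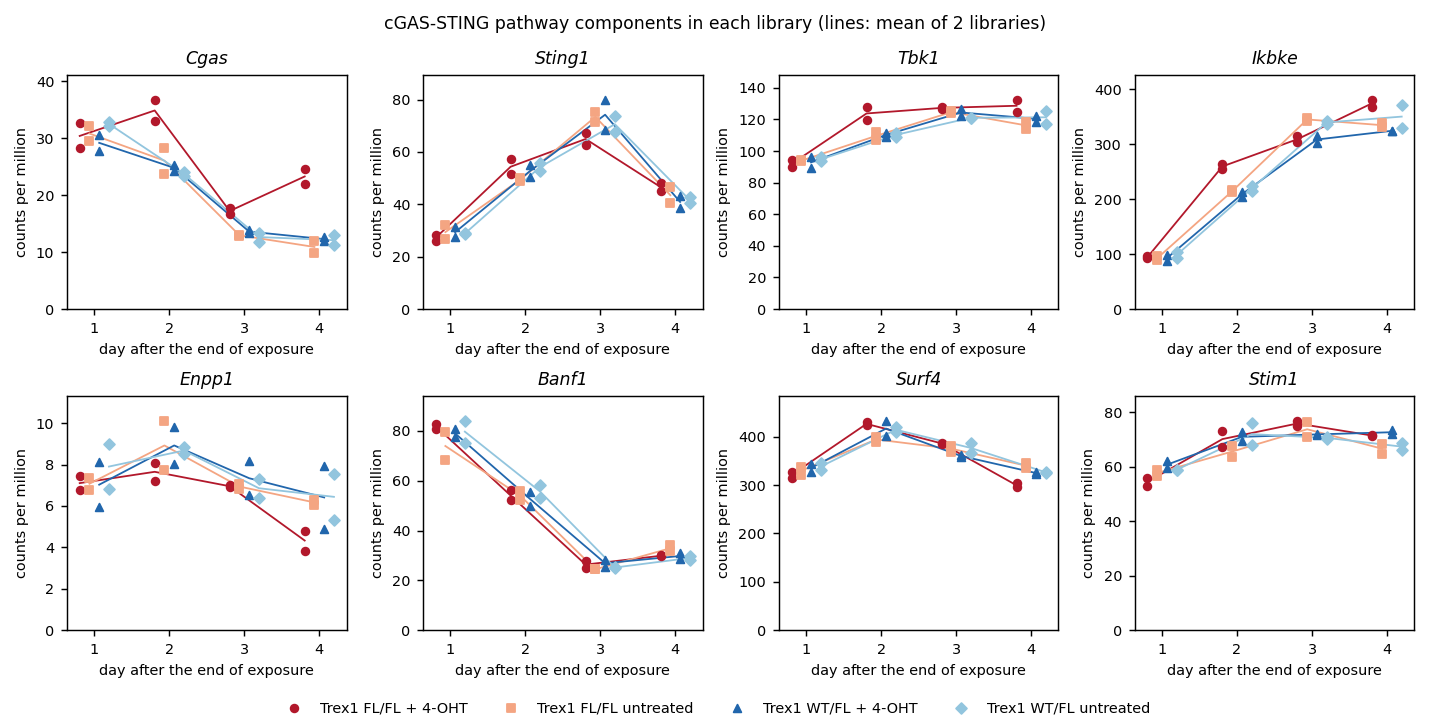
CPM of each component (vertical axis, from 0) by day after the end of exposure, with 1 point per library and lines through the means of 2 libraries, coloured by genotype and treatment. On day 4 both *Cgas* points of 4-OHT-treated Trex1 FL/FL cells (24.6 and 21.9 CPM) lie above the 6 other libraries, the highest of which has 12.9 CPM.

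*Cgas*, the DNA sensor, lies at chr9:78337802-78350535 on the minus strand. The pairs of 4-OHT-treated Trex1 FL/FL libraries held, in the order of the days, 32.6 and 28.2, 36.8 and 33.0, 17.8 and 16.6, then 24.6 and 21.9 CPM. The pairs of 4-OHT-treated Trex1 WT/FL libraries held 30.6 and 27.7, 24.3 and 25.3, 13.4 and 13.8, then 11.9 and 12.7 CPM. The libraries of the genotypes overlapped on day 1, and on days 2, 3 and 4 both Trex1 FL/FL libraries were above both Trex1 WT/FL libraries. The log2 fold change was 0.06 on day 1 (95% interval -0.15 to 0.27), 0.49 on day 2 (SE 0.102, adjusted p = 0.00105), 0.34 on day 3 (SE 0.106, adjusted p = 0.0242) and 0.92 on day 4 (SE 0.106, adjusted p = 9.64e-08). With 2 libraries against 2, an exact two-sided permutation test of a single gene cannot go below 0.333.

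The call of *Cgas* on day 4 held in all 12 other settings and left-out libraries, with a log2 fold change of 0.83 to 1.01. On day 2 it was lost without library 1 of 4-OHT-treated Trex1 FL/FL cells (0.41, adjusted p = 0.0395) and without library 1 of 4-OHT-treated Trex1 WT/FL cells (0.46, adjusted p = 0.0216). *Mki67*, a marker of proliferating cells, moved with the same comparison in the opposite direction, with 5.76 and 7.66 CPM in 4-OHT-treated Trex1 FL/FL cells on day 4 against 47.9 and 47.2 CPM for Trex1 WT/FL. The summed macrophage markers on days 2 and 3 were lower in 4-OHT-treated Trex1 FL/FL libraries too, at 26391 to 28393 against 31823 to 33835 CPM on day 2. *Lyz2* weighs most in this sum, and the difference is given for the sum only. The part of *Mki67* and of these markers in the *Cgas* and *Ikbke* results was not tested.

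*Ikbke* encodes IKKε, the kinase related to TBK1, at chr1:131182080-131207346 on the minus strand. Its levels in the pairs of 4-OHT-treated Trex1 FL/FL libraries were, in the order of the days, 96.6 and 91.96, 264 and 255, 314 and 303, then 381 and 368 CPM. In the pairs of 4-OHT-treated Trex1 WT/FL libraries they were 87.5 and 97.6, 204 and 213, 301 and 315, then 324 and 325 CPM. The genotypes overlapped on days 1 and 3 and were apart on days 2 and 4. The log2 fold change was 0.03 on day 1 (95% interval -0.10 to 0.15), 0.31 on day 2 (SE 0.0603, adjusted p = 0.000457), 0.0024 on day 3 (95% interval -0.12 to 0.13) and 0.21 on day 4 (SE 0.0601, adjusted p = 0.00876).

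The *Ikbke* call on day 2 was lost without library 1 of either genotype (log2 fold change 0.29 and 0.28, adjusted p = 0.0131 and 0.0154) and with library totals (0.23, adjusted p = 0.0111). On day 4 it was lost without any 1 of the 4 libraries, at 0.18 to 0.23 with adjusted p of 0.0207 to 0.0905, and it held in 4 of 12 other settings. With library totals in place of TMM scaling it was 0.11 on day 4 (adjusted p = 0.182), and that scaling moved the median of all tested genes to -0.13.

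*Tbk1* lies at chr10:121382360-121422848 on the minus strand. On day 2 the 4-OHT-treated Trex1 FL/FL libraries held 120 and 128 CPM and the Trex1 WT/FL ones 111 and 109 CPM, with no overlap. The log2 fold change was 0.17 with an adjusted p of 0.0306, which missed the threshold. On days 1, 3 and 4 it was -0.02, 0.03 and 0.10, with 95% intervals of -0.12 to 0.09, -0.07 to 0.14 and -0.01 to 0.20.

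*Sting1* (chromosome 18, 35866732 to 35873607, minus strand) had 45.2 and 48.0 CPM on day 4 after 4-OHT in Trex1 FL/FL, and 38.6 and 43.3 CPM in Trex1 WT/FL. On day 3 it had 62.5 and 67.4 against 68.5 and 80.0 CPM. The libraries of the genotypes thus lay apart on both days, in opposite order. The log2 fold changes were -0.11, 0.04, -0.19 and 0.19 on days 1 to 4, with adjusted p of 0.135 or more. The interval on day 4 ran from -0.0027 to 0.38, so a difference as large as that of *Ikbke* is within it.

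*Enpp1*, at chr10:24513812-24588057 on the minus strand, was measured on day 4 at 3.85 and 4.81 CPM (139 and 159 counts) in the 4-OHT-treated Trex1 FL/FL libraries and at 4.89 and 7.93 CPM in the Trex1 WT/FL ones. The libraries lay apart by a small margin, and the log2 fold change of -0.56 (SE 0.213) did not pass, with an adjusted p of 0.0467. With no filter on low counts it passed (-0.56, adjusted p = 0.00956). The value rests on single libraries, since it was -0.88 (adjusted p = 0.00438) without library 1 of 4-OHT-treated Trex1 WT/FL cells and -0.18 (adjusted p = 0.644) without library 2. *Enpp1* had the largest spread between the libraries of a group among the 8 members, with a median coefficient of variation of 11.7%.

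*Surf4*, at chr2:26807611-26823940 on the minus strand, held 295 and 304 CPM on day 4 in the 4-OHT-treated Trex1 FL/FL libraries, below the 323 and 327 CPM of Trex1 WT/FL. Its log2 fold change of -0.12 did not pass (adjusted p = 0.0692), but passed with library totals alone (-0.21, adjusted p = 0.000815). *Banf1*, at chr19:5414660-5417614 on the minus strand, gave log2 fold changes between -0.03 and 0.05 over the 4 days. On day 4 it had 29.6 and 30.1 CPM against 31.1 and 28.4 CPM, with an interval of -0.17 to 0.17. *Stim1*, at chr7:101916979-102086526 on the plus strand, had 71.2 and 71.7 CPM against 72.1 and 73.4 CPM on day 4, a log2 fold change of -0.02 (95% interval -0.15 to 0.10).

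**Figure D3:**
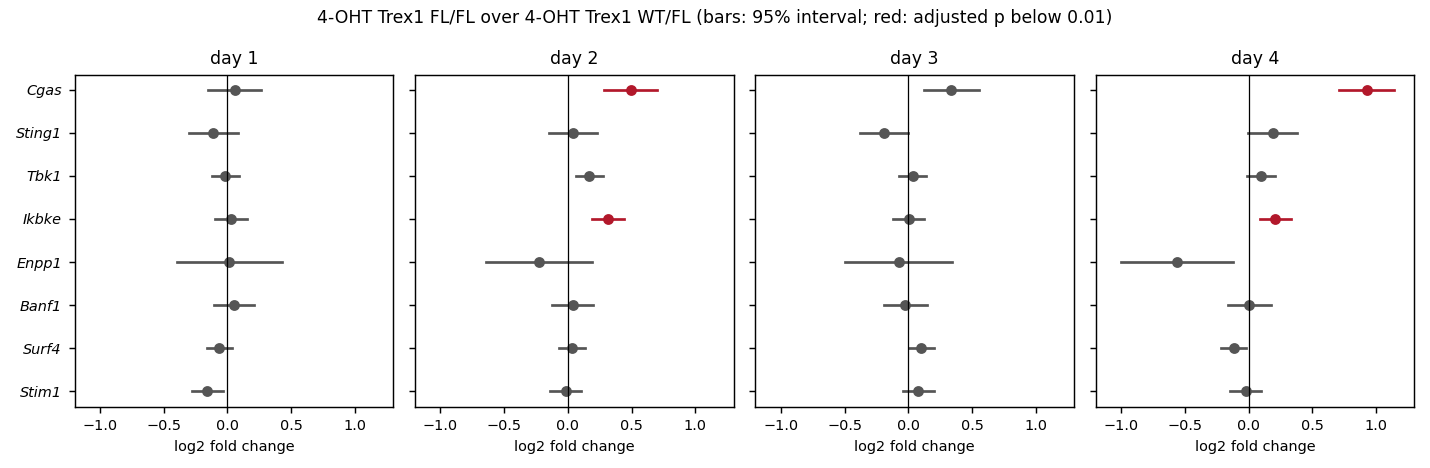
Log2 fold change of each component in 4-OHT-treated Trex1 FL/FL over 4-OHT-treated Trex1 WT/FL cells on each day, with 95% intervals and in red where the adjusted p was below 0.01. *Cgas* on day 4 (0.92) is the farthest from 0, and *Cgas* and *Ikbke* are the red points, on days 2 and 4.

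Within Trex1 FL/FL cells, 4-OHT was compared with no treatment on the same day. This comparison shares its 4-OHT-treated libraries with the one above, so its values are given beside it and not as a second line of support. *Cgas* was higher after 4-OHT on day 2 (log2 fold change 0.42, adjusted p = 0.00379), day 3 (0.41, adjusted p = 0.00571) and day 4 (1.09, SE 0.108, adjusted p = 5.98e-09). The untreated libraries held 28.3 and 23.8 CPM on day 2, 12.9 and 13.0 on day 3, and 12.0 and 9.79 on day 4, in each case below both treated libraries. *Ikbke* was higher on day 2 (0.28, adjusted p = 0.00143), from 213 and 216 CPM without 4-OHT. On days 3 and 4 *Ikbke* did not pass edgeR's test, at -0.16 (adjusted p = 0.0561) and 0.16 (adjusted p = 0.0405). Without 4-OHT it had 331 and 337 CPM on day 4. *Surf4* was lower on day 4 (-0.18, adjusted p = 0.00443), from 345 and 335 CPM without 4-OHT.

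In the order of the days 0, 2, 1 and 2 members passed, where 0.0131%, 11.1%, 15.7% and 21.4% of all tested genes were called. On day 1 edgeR gave 0 members at an unadjusted p below 0.05 and DESeq2 called 0. The calls on days 2 to 4 were higher after 4-OHT in 67.6%, 51.8% and 47.6% of cases, and in 36.4%, 39.6% and 31.9% with library totals. The *Cgas* call on day 4 held in 12 of 12 settings. On day 3 it was lost without any 1 of the 4 libraries, at 0.36 to 0.46 (adjusted p of 0.0160 to 0.0604). On day 2 it was lost without library 2 of the untreated cells (0.30, adjusted p = 0.134) and without library 1 of the treated cells (0.34, adjusted p = 0.0875). *Ikbke* on day 2 was lost without either untreated library or treated library 1 (0.25 to 0.28, adjusted p of 0.0133 to 0.0275), and *Surf4* on day 4 without any 1 of the 4 libraries (-0.21 to -0.16, adjusted p of 0.0121 to 0.0531).

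None of the 8 components passed edgeR's test on any day when Trex1 WT/FL cells with and without 4-OHT were compared, or between untreated cells of the 2 genotypes. The first of these shares its 4-OHT-treated libraries with the comparison of treated genotypes. At an unadjusted p below 0.05, *Ikbke* on day 3 was below it in the first comparison (log2 fold change -0.14), and *Stim1* on day 2 (-0.13) and *Banf1* on day 4 (0.18) in the second. DESeq2 also called 0 members in both. Of all tested genes, 4-OHT in Trex1 WT/FL cells called 0.00655%, 0.0918%, 0.341% and 0.216% on days 1 to 4. The untreated genotypes gave calls for 0% of the tested genes on days 1, 2 and 3 and in 0.0655% on day 4. On day 4 untreated Trex1 WT/FL cells had 12.9 and 11.3 CPM of *Cgas*, which overlaps with the 11.9 and 12.7 CPM of the treated ones. Untreated Trex1 WT/FL cells of day 4 had 329 and 371 CPM of *Ikbke*, beside 324 and 325 CPM in the treated ones. The 371 CPM lies above the 368 CPM of library 2 of 4-OHT-treated Trex1 FL/FL cells.

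The genotype difference after 4-OHT was also tested against the genotype difference in untreated cells, over the 8 libraries of a day. *Cgas* passed on day 4, with a log2 difference of 1.07 (SE 0.153, adjusted p = 7.36e-06), and held in 16 of 16 settings. On days 2 and 3 it was 0.36 (adjusted p = 0.186) and 0.30 (adjusted p = 0.259). *Ikbke* missed the threshold on day 2 with 0.35 (adjusted p = 0.01002) and on day 4 with 0.27 (adjusted p = 0.0255). DESeq2 called it on both days, with adjusted p of 0.00260 and 0.00953, and edgeR called it on day 4 without library 1 of untreated Trex1 WT/FL cells (0.35, adjusted p = 0.00683). Thus 0 members passed on days 1 to 3 and 1 passed on day 4, with 0, 3 and 0 members at an unadjusted p below 0.05 on the first 3 days, beside 0.00655%, 4.04%, 4.65% and 10.4% of all tested genes.

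Whether the 4-OHT genotype difference itself changed from one day to the next was tested as a difference of differences. None of the 8 components passed. The *Cgas* difference grew by 0.59 between days 3 and 4 with an adjusted p of 0.0140, and passed in DESeq2 with an adjusted p of 0.00622. Between days 1 and 2 it grew by 0.43 (adjusted p = 0.0851). The *Ikbke* difference changed by 0.29 between days 1 and 2 (adjusted p = 0.0482), by -0.31 between days 2 and 3 (adjusted p = 0.0460) and by 0.21 between days 3 and 4 (adjusted p = 0.171). Of all tested genes, 3.02%, 0.905% and 3.7% changed their genotype difference in these 3 steps. At an unadjusted p below 0.05, *Tbk1* also changed between days 1 and 2 (0.18), and *Sting1* and *Surf4* between days 3 and 4 (0.38 and -0.22).

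Most components also changed from day to day. In untreated cells, averaged over both genotypes, *Ikbke* rose by a log2 of 1.18 over the first step, day 1 to day 2, with an adjusted p of 1.29e-18, and by 0.66 over the next, with an adjusted p of 2.44e-13. Over the same steps *Banf1* fell by 0.49 and by 1.14 on the log2 scale, and *Cgas* fell by 0.35 and by 0.96. *Sting1* rose by 0.83 and then by 0.48, and in the last step, day 3 to day 4, it fell by 0.76 with an adjusted p of 8.95e-10. Groups of the same day share a harvest day, and the labels do not say whether they share a culture, so day and batch cannot be told apart.

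*Ikbke* had 88.8 to 103 CPM in the untreated libraries of day 1 and 329 to 371 CPM in those of day 4. *Banf1* had 68.4 to 84.1 CPM in untreated cells on day 1 and 24.4 to 25.2 CPM on day 3, with no overlap. *Mki67* had 676 to 775 CPM in untreated cells on day 1 and 31.7 to 41.4 CPM on day 3, and its part in the *Banf1* and *Cgas* changes was not tested. *Sting1* peaked on day 3, at 67.7 to 75.4 CPM in untreated cells, with 26.7 to 32.1 CPM on day 1 and 40.4 to 46.6 CPM on day 4.

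The means of the 16 groups spanned 1.40-fold for *Tbk1*, 1.42-fold for *Surf4* and 1.39-fold for *Stim1*, and 4.05-fold for *Ikbke*. In untreated cells *Tbk1* rose by 0.22 from day 1 to day 2 and by 0.16 from day 2 to day 3, *Stim1* rose by 0.24 from day 1 to day 2, and *Surf4* rose by 0.28 in that step and fell by 0.17 from day 3 to day 4. Between days 2 and 3 *Surf4* just missed the threshold in the main fit (-0.10, adjusted p = 0.0103). In edgeR it passed with RLE factors (-0.13, adjusted p = 0.00238), library totals (-0.23, adjusted p = 1.8e-06) and no robust estimation (-0.10, adjusted p = 0.00949). It also passed with the compared libraries alone (-0.14, adjusted p = 0.00295) and in DESeq2 (-0.13, adjusted p = 0.000389). Without library 2 of untreated Trex1 WT/FL cells of day 3 it was -0.13. *Banf1* rose by 0.32 from day 3 to day 4. *Enpp1* passed in none of the 3 steps in the main fit, with the nearest at a log2 of -0.35 from day 2 to day 3 (adjusted p = 0.0383). That fall passed with library totals (-0.47, adjusted p = 0.00651), no filter on low counts (-0.36, adjusted p = 0.00807) and the compared libraries alone (-0.39, adjusted p = 0.00549). In all, 5 members rose and 2 fell on day 2, 3 rose and 2 fell on day 3, and 1 rose and 2 fell on day 4, beside 49.6%, 48.2% and 22.5% of all tested genes called.

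The same step was tested in the 4-OHT-treated cells of each genotype. From day 1 to day 2, 5 members rose and 1 fell in Trex1 FL/FL cells and likewise in Trex1 WT/FL cells, with *Ikbke* rising by 1.46 and 1.17, *Sting1* by 1.00 and 0.84, *Tbk1* by 0.43 and 0.25, *Surf4* by 0.41 and 0.31, and *Stim1* by 0.37 and 0.22. *Banf1* fell by 0.60 and 0.58 on the log2 scale. *Cgas* passed in neither, with 0.20 (95% interval -0.01 to 0.41) in Trex1 FL/FL and -0.24 (-0.44 to -0.03) in Trex1 WT/FL cells. In these steps 41.1% and 38.6% of all tested genes were called. With library totals *Stim1* lost its call in Trex1 FL/FL cells (0.16, adjusted p = 0.0275), *Stim1* (0.11, adjusted p = 0.128) and *Tbk1* (0.13, adjusted p = 0.0332) lost theirs in Trex1 WT/FL cells, and *Cgas* passed there with -0.35 (adjusted p = 0.00517). In Trex1 WT/FL cells, *Stim1* lost its call without library 1 of day 1 (0.19, adjusted p = 0.0417) or library 2 of day 2 (0.19, adjusted p = 0.0398), and *Tbk1* without library 2 of day 1 (0.20, adjusted p = 0.0155).

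From day 2 to day 3, 1 member rose and 2 fell in Trex1 FL/FL cells, beside 33.1% of all tested genes called. *Ikbke* rose by 0.25 (adjusted p = 0.00119), *Cgas* fell by 1.02 and *Banf1* fell by 1.04 on the log2 scale. *Sting1* was at 0.26 and *Surf4* at -0.14, and neither passed in the main fit. *Sting1* passed with upper-quartile factors (0.30, adjusted p = 0.00949), no filter on low counts (0.26, adjusted p = 0.00698) and the compared libraries alone (0.26, adjusted p = 0.00534). *Surf4* passed with library totals (-0.22, adjusted p = 0.000460) and in DESeq2 (-0.15, adjusted p = 0.00408). In Trex1 WT/FL cells 3 rose and 3 fell, beside 36.3%. *Ikbke* rose by 0.56, *Sting1* by 0.49 and *Tbk1* by 0.17, while *Banf1* fell by 0.97, *Cgas* by 0.87 and *Surf4* by 0.21. The *Tbk1* call held in 4 of 12 other settings and left-out libraries, and with library totals it was 0.064 (adjusted p = 0.321). Library totals also ended the *Ikbke* call in Trex1 FL/FL cells (0.18, adjusted p = 0.0248). In Trex1 FL/FL cells *Ikbke* lost its call without library 2 of day 2 or library 1 of day 3 (both 0.23, adjusted p = 0.0220 and 0.0192). In Trex1 WT/FL cells *Tbk1* lost its call without any 1 of the 4 libraries (0.15 to 0.20, adjusted p of 0.0146 to 0.0790), and *Surf4* without library 2 of day 2 (-0.16, adjusted p = 0.0342).

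From day 3 to day 4, 2 members rose and 2 fell in Trex1 FL/FL cells, beside 9.33% of all tested genes called. *Cgas* rose by 0.44 (adjusted p = 0.00427) and *Ikbke* by 0.28 (adjusted p = 0.00158), while *Sting1* fell by 0.48 and *Surf4* by 0.37. *Enpp1* was at -0.69 and did not pass in the main fit, but passed with no filter on low counts (-0.69, adjusted p = 0.00166). In Trex1 WT/FL cells only *Sting1* passed, with a fall by 0.86, beside 12.2%, and *Cgas* was at -0.15 (95% interval -0.37 to 0.07). In Trex1 FL/FL cells *Cgas*, *Sting1* and *Ikbke* each lost the call without library 2 of day 3 (0.39, -0.43 and 0.25, adjusted p = 0.0760, 0.0153 and 0.0361) and without library 1 of day 4 (0.35, -0.44 and 0.25, adjusted p = 0.0967, 0.0154 and 0.0315). *Cgas* also lost it without library 1 of day 3 (0.48, adjusted p = 0.0156).

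**Figure D4:**
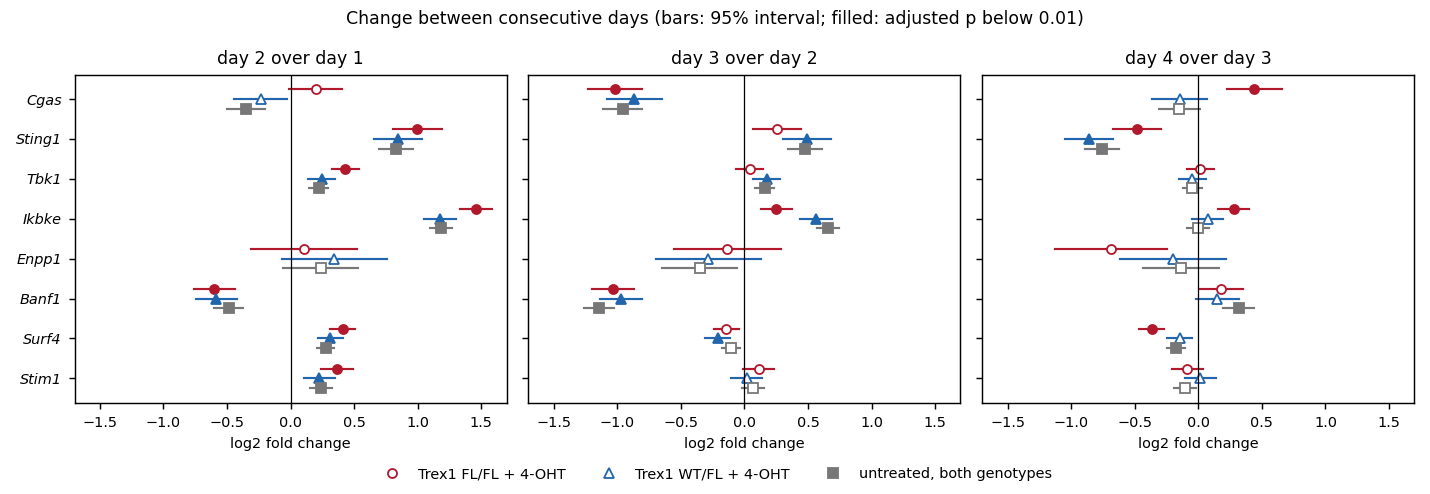
Log2 fold change between consecutive days in 4-OHT-treated Trex1 FL/FL cells, 4-OHT-treated Trex1 WT/FL cells and untreated cells of both genotypes, with 95% intervals and filled symbols where the adjusted p was below 0.01. *Ikbke* and *Sting1* rose and *Banf1* fell on day 2 in all 3, and on day 4 *Cgas* rose in 4-OHT-treated Trex1 FL/FL cells (0.44).

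Over the 16 group means of log2 CPM, *Tbk1* and *Ikbke* varied together (Pearson r = 0.970), and both went against *Banf1* (r = -0.901 and -0.924). *Cgas* went with *Banf1* (r = 0.868) and against *Ikbke* (r = -0.751), and *Sting1* went with *Stim1* (r = 0.872). These are descriptions over 16 points that share 4 days of harvest. The genes most like a member by Pearson r among all tested genes were *Hmgn3* (0.983), *Mrpl3* (0.983) and *Msn* (0.981) for *Cgas*, and *Akna* (0.974), *Lyz2* (0.974) and *Ip6k2* (0.973) for *Sting1*. They were *Tut7* (0.994), *Tox4* (0.991) and *Siglec1* (0.991) for *Tbk1*, and *Arhgap17*, *Evl* and *Arap1* (each 0.995) for *Ikbke*. For *Banf1* they were *Sae1*, *Actl6a* and *E2f8* (0.9949, 0.9946 and 0.9945), for *Enpp1* *Trim16* (0.957), *Aldoc* (0.937) and *Ak3* (0.933), for *Surf4* *Adipor2* (0.954), *Kcnk6* (0.951) and *Cope* (0.946), and for *Stim1* *Ap3b1* (0.972), *Siae* (0.963) and *Exoc4* (0.960). The lists depend on the measure of likeness. By Spearman's rho the first genes for *Cgas* were *Capn5*, *Eif1a* and *Nudt19*, and by Pearson r over the 32 libraries those for *Enpp1* were *Papss2* (0.828), *Rcbtb1* (0.8245) and *Echs1* (0.817).

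Around the 8 components, 75 further genes of the pathway were listed by role, and 70 of them were tested. In the comparison of the 4-OHT-treated genotypes, the numbers of higher and lower genes in Trex1 FL/FL cells were 0 and 1, 10 and 1, 13 and 5, then 13 and 14 in the order of the days. *Trex1* itself is the 1 lower gene on days 1 and 2 and is among those of days 3 and 4. The percentage that passed was 1.43, 15.7, 25.7 and 38.6 on days 1 to 4, where 0.0197, 8.17, 12.1 and 21.5 percent of all tested genes passed. The 75 genes were chosen with earlier results of these data known and include *Trex1* and IFN target genes. These percentages are thus a description and not a test. On day 2, 55.6% of the transcription factors and target genes passed and 33.3% of the DNA degradation genes, *Trex1* included. The other roles had 0% to 10% on that day. The median log2 fold change of the listed genes was -0.061 on day 4, beside -0.037 over all tested genes. With library totals alone, 12 were higher and 22 lower on day 4, so the balance of directions there depends on the scaling.

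Among the transcription factors and target genes downstream of the kinases, the target genes and *Irf7* were higher. Of 9 tested, 5 were higher on day 2, 5 on day 3 and 6 on day 4, *Ifnb1* included, and none was lower. Over all tested genes 8.17%, 12.1% and 21.5% were called on these days. *Irf3*, *Rela* and *Nfkb1* passed on no day. The list was chosen with earlier results of these data known, so its count is a description and not a test. On day 4 *Cxcl10*, a chemokine, was higher by a log2 of 3.65, *Isg15*, a ubiquitin-like modifier, by 2.91, *Ifit1*, an antiviral RNA-binding protein, by 2.71 and *Irf7*, an IFN-inducible transcription factor, by 2.38. *Irf3*, the factor that TBK1 phosphorylates, had 46.6 and 44.4 CPM on day 4 in the 4-OHT-treated Trex1 FL/FL libraries and 49.99 and 44.7 CPM in the Trex1 WT/FL ones, a log2 fold change of -0.059 (adjusted p = 0.719). *Ifnb1*, which encodes IFNβ, had 12 and 14 counts in Trex1 FL/FL libraries on day 4 and 0 counts in both Trex1 WT/FL libraries. On day 2 it had 18 and 12 counts against 6 and 3.

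Of 10 partners of TBK1 and the IKK kinases, 2 were higher and 2 lower on day 4, and this count and those of the other roles stand beside 21.5% of all tested genes. The adaptors *Azi2* (0.72) and *Tank* (0.47) were higher, and *Ikbkg*, the regulatory subunit of the IKK complex (-0.74), and *Traf3*, a ubiquitin ligase (-0.36), were lower. Of 23 tested genes of STING traffic and turnover, 2 were higher and 6 lower, led by *Usp18*, an IFN-inducible protease of the ISG15 system (2.72), and by *Npc1*, the lysosomal cholesterol transporter (-0.53), *Usp20* (-0.46) and *Insig1* (-0.33). Of 14 tested partners and regulators of cGAS, 1 was higher, *Trim14* (0.91), and 3 were lower, the cell cycle kinase *Cdk1* (-0.73), the DNA repair kinase *Prkdc* (-0.43) and the chromatin protein *Hmgb1* (-0.28). *Hmgb1* did not pass with RLE factors.

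Of 8 tested genes of cGAMP transport and degradation, 1 was higher and 2 were lower on day 4. *Smpdl3a*, a phosphodiesterase, was higher (0.47), and the exporter *Abcc1* (-1.002) and *Lrrc8a*, a subunit of volume-regulated anion channels (-0.44), were lower. Of 6 genes listed under the role of DNA degradation, *Samhd1*, which encodes a dNTP hydrolase, was higher by 0.88 and *Trex1* was lower. Of the 8 components, *Cgas* gave the largest log2 fold change of day 4 (0.92). The target genes *Cxcl10*, *Isg15* and *Ifit1* and the factor *Irf7* gave larger ones (2.38 to 3.65). So did *Usp18* among the genes of STING traffic and turnover (2.72). *Abcc1* was larger in size in the other direction (-1.002).

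**Figure D5:**
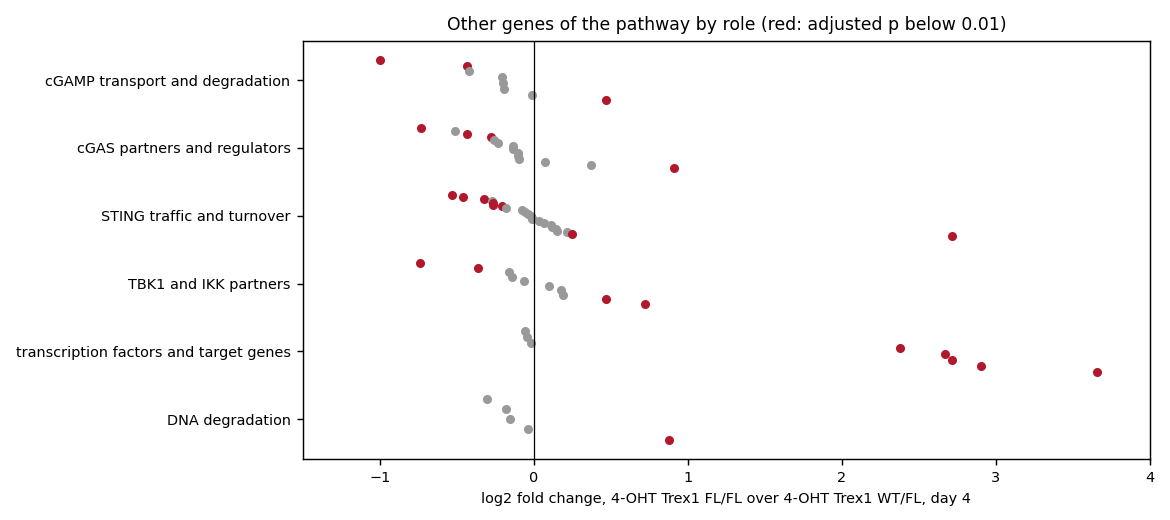
Day 4 log2 fold change of the other pathway genes, 4-OHT-treated Trex1 FL/FL over 4-OHT-treated Trex1 WT/FL cells, 1 point per tested gene by role, in red where the adjusted p was below 0.01. The plotted target genes and *Irf7* lie between 2.38 and 3.65, the transcription factors *Irf3*, *Rela* and *Nfkb1* lie near 0, and *Trex1* and *Ifnb1*, which had 0 counts in 1 group, are left out.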

How the data were processed

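RNA of 32 libraries, 2 for each combination of genotype, treatment and day, was measured by RNA sequencing. The authors quantified reads with Salmon and summarised them per gene with tximport on GRCm39, and FastQC and DESeq2 are also named in the submitters' processing notes. In the deposited table these estimated counts are whole numbers without normalization. How reads shared between similar genes were divided depends on the quantification and on its annotation, whose release is not given in the sources used here.

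Symbols, coordinates and exon lengths were taken from GENCODE vM39, which matched 51048 of 54281 identifiers, and unmatched ones held 0.32% of the counts. The 8 members and the pathway lists were chosen with earlier results of these data known. The model was edgeR 4.0.16 (R 4.3.3) with TMM factors of 0.894 to 1.12, a minimum count of 10, robust glmQLFit and glmQLFTest, on all 32 libraries and 16 group means, with Benjamini-Hochberg adjustment over 15257 genes in each comparison. The SE is the absolute log2 fold change divided by the square root of the F statistic, and 95% intervals use the total degrees of freedom of edgeR. The fit had 16 residual degrees of freedom and a common biological coefficient of variation of 0.0912. The procedure was also run on counts simulated from this same fit, which cannot show whether the libraries of a group are technical. Group means of log2 CPM used a prior count of 2. The lowest count of a member in any library was 139 (*Enpp1*).

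At most 4 pathway genes of each role were named by value, those with the largest absolute change on day 4 among genes that passed, plus *Irf3*, *Irf7* and *Ifnb1*. Alternatives covered RLE factors, upper-quartile factors, library totals, other filters on low counts, DESeq2 1.42.0, no robust estimation, fits to the compared libraries alone, other thresholds, and each library left out in turn. Columns were assigned to samples by the labels and all 32 libraries were used.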

Additional observations from a re-analysis of the deposited data

Results flagged for a closer look

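The effect of 4-OHT on *Cgas* differed between the genotypes on day 4. The genotype difference after 4-OHT minus that in untreated cells was 1.07 on the log2 scale (edgeR's quasi-likelihood test, adjusted p = 7.36e-06), with both 4-OHT-treated Trex1 FL/FL libraries above the other 6. Groups of 2 libraries are too small for a test of single outlying libraries.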

How the results depend on the processing

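The 32 comparisons share libraries, and the share of all tested genes called is given above for each. The members were called 51 times in them. Of these calls, 34 held under every other scaling, filter, test and left-out library, and 0 turned their direction. Between genotypes or treatments of the same day, only the *Cgas* calls of day 4 held throughout. The rest of the calls that held were changes between days. No paired analysis was possible because the labels give no replicate numbers that join libraries across groups. The lowest depth was 35120505 counts, and *Enpp1* had as few as 139 counts in a library. With a library left out, the remaining one of its group is assumed to vary like the other groups.

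At the fold threshold of the study the count of members was 0 in all comparisons, including those with 1 to 7 calls. With 4-OHT-treated Trex1 FL/FL against Trex1 WT/FL cells, the 2 calls of day 2 became 1 with library totals and 0 to 2 without a library, and the 2 of day 4 became 1 with upper-quartile factors or no robust estimation and 1 to 2 without a library. With library totals and with no filter on low counts the count of day 4 stayed at 2, but its members changed. *Ikbke* was replaced by *Surf4* with library totals and by *Enpp1* with no filter. At an adjusted p below 0.05 the 0 of day 3 became 1. For 4-OHT against no treatment in Trex1 FL/FL cells, the 2 calls of day 2 became 0 with library totals, 1 in a fit to the compared libraries alone and 0 to 2 without a library. The 1 of day 3 became 0 with library totals and 0 without any library, and the 2 of day 4 became 1 with no filter, 1 in the fit to the compared libraries, 4 at 0.05 and 1 without any library. For the genotype difference minus that of untreated cells, the 0 of day 2 became 1 with a filter at 1 CPM, with DESeq2 and at 0.05, and the 1 of day 4 became 2 with DESeq2 and at 0.05 and 1 to 2 without a library. For the change of the genotype difference between days, the 0 became 1 at 0.05 in each step, and 1 in the last step with no filter, a filter at 1 CPM or DESeq2. Between days in 4-OHT-treated cells, the 3 of day 3 in Trex1 FL/FL became 5 and the 1 of day 4 in Trex1 WT/FL became 2 at 0.05, and the 4 of day 4 in Trex1 FL/FL became 1 to 4 without a library.

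Values that did not pass turned their sign in the comparison of 4-OHT-treated genotypes as follows. With library totals the log2 fold change was -0.039 for *Sting1*, -0.044 for *Banf1* and -0.049 for *Surf4* on day 2, -0.012 for *Tbk1* and -0.042 for *Ikbke* on day 3, and -0.00024 for *Tbk1* and -0.094 for *Banf1* on day 4. With a filter at 1 CPM *Ikbke* was -0.0099 on day 3. Minus the difference in untreated cells it was 0.12 for *Stim1* on day 2, -0.0092 for *Tbk1*, -0.020 for *Ikbke* and 0.016 for *Banf1* on day 3, and -0.18 for *Banf1* on day 4. In the fit to the compared libraries *Stim1* was 0.0079 on day 4. Without a library the range on day 1 was -0.051 to 0.16 for *Cgas*, -0.069 to 0.037 for *Tbk1*, -0.051 to 0.11 for *Ikbke* and -0.19 to 0.25 for *Enpp1*. On day 2 it was -0.033 to 0.11 for *Sting1*, -0.037 to 0.12 for *Banf1*, -0.024 to 0.090 for *Surf4* and -0.081 to 0.042 for *Stim1*. On day 3 it was -0.029 to 0.036 for *Ikbke*, -0.23 to 0.096 for *Enpp1* and -0.10 to 0.050 for *Banf1*, and on day 4 -0.062 to 0.070 for *Banf1*. The cause was not tested.

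Library totals also moved the share of higher calls among all genes between days. The share fell from 52.8% to 31.5% on day 2 and from 45.6% to 34.8% on day 3 in Trex1 FL/FL cells given 4-OHT, from 52.3% to 38.6% and from 48.7% to 33.3% in Trex1 WT/FL cells, and from 51.7% to 40.7% and from 51.5% to 36.1% in untreated cells. *Tbk1* on day 3 in untreated cells was then 0.040 (adjusted p = 0.362 in edgeR). The scaling alternative for the pathway genes was chosen after seeing the data.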
